A study of Arabidopsis thaliana with 21 samples.

Results

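Roots of Arabidopsis thaliana Col-0 from the later of 2 harvests were compared between soil and plates. The comparison used 6 of the 21 ATH1 arrays of the series, chosen by title: 3 arrays of soil group ATGE_9 and 3 arrays of plate group ATGE_98. ATGE_9 plants grew on soil under continuous light at 23 °C and 65% relative humidity. ATGE_98 plants grew on plates of 0.5x GM, a mineral nutrient medium, under continuous light at 20 °C. For these plates the labels list no added sucrose and no humidity. All plants were of the same wild-type accession, and no treatment beyond the growth conditions is named. The earlier pair, soil group ATGE_3 (23 °C, 65% humidity) and plate group ATGE_94 (0.5x GM, 20 °C), entered only a second test, in which the difference between soil and plate was itself compared between harvests. The label of ATGE_3 notes soil in the sampled tissue, and the label of ATGE_9 carries no such note. The remaining arrays, ATGE_99 and ATGE_95 (0.5x GM with 5% sucrose) and ATGE_93 (1x MS medium, 1% sucrose, long days, 22 °C), served for the estimate of the spread and for levels in other conditions.

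Soil and plate could not be told apart here from the temperature or the set of plants, which coincided with the substrate, nor from any gap in age at harvest. The order of the harvests is background knowledge of this developmental series. The labels of these groups do not give ages, do not say whether light reached the plate roots, and do not say that the 3 arrays of a group came from separate cultures, so the p-values measure the spread between these samples, which may be technical. Because the arrays are bulk samples, fewer cells of a type and less RNA per cell cannot be told apart in any result below.

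A root growing in soil pushes through a solid, dark and microbe-rich substrate, takes up water and ions from particles, and sheds cells and exudates. A root on a transparent plate grows along or in a soft gel that holds all mineral nutrients in solution. Root cells keep non-green plastids, and plastid and flavonoid genes of roots are known to respond to light. Root hairs, tubular outgrowths of the epidermis, widen the surface for uptake. Expansins, xyloglucan enzymes and other wall proteins loosen and rebuild the wall of elongating cells. Calmodulin-like proteins bind calcium ions, which rise in plant cells on touch and wounding.

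Each array reports a MAS5 signal, a brightness per probe set on a linear scale in arbitrary units that the authors had scaled to a common mean. Median signal over probe sets was 41.7 to 42.8 on the soil arrays and 43.4 to 44.7 on the plate arrays. Pearson's r of log2 signal lay between 0.985 and 0.987 among soil arrays, between 0.982 and 0.986 among plate arrays, and between 0.773 and 0.784 across the groups. These correlations run over probe sets and are given as a description. The ratio of 3' to 5' control signal, a sign of RNA integrity, averaged 1.22 ± 0.177 in soil roots and 1.15 ± 0.164 in plate roots for GAPDH, and 10.46 ± 1.002 in soil roots and 8.23 ± 1.02 in plate roots for actin (SD, n = 3 each). The root hair expansins EXPA7 and EXPA18 and the root beta-glucosidase PYK10 lay above the 40th percentile on all 6 arrays. So did 12045 of the 15284 tested probe sets, and this is therefore no test of root identity.

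Genes with a known role that were higher in soil roots included calcium sensors, heat shock chaperones, xyloglucan enzymes and genes of dividing cells. Those that were lower included genes of photosynthesis, sugar conjugation of small molecules and root hairs. Also lower were the flavonoid genes tested (CHIL and glycosyltransferases) and the autophagy genes tested (ATG3 and the ATG8 family). Of 15284 probe sets tested, 10206 passed an adjusted p of 0.05 in limma (66.8%), 5175 of them higher (33.9%) and 5031 lower (32.9%) in soil roots. Counting a group that was dim for a probe set at the floor described next, at least 2-fold differences were found for 1156 probe sets that rose (7.56%) and 1369 that fell (8.96%). At least 4-fold differences were found for 188 that rose and 345 that fell, and at least 8-fold differences for 63 that rose and 99 that fell. The median log2 difference over all tested probe sets was 0.00065, with the 5th and 95th percentiles at -1.72 and 1.39. The counts for each gene group are to be read against these shares.

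A group was called dim for a probe set when all its arrays lay below their own 40th percentile of signal, at 24.6 to 26.1 in soil roots and 25.5 to 26.8 in plate roots. The dim group was then set at that percentile or its own value, whichever was higher, and the fold is given as a lower bound. List medians are of fitted differences, and a second median with dim groups at this floor is given where it lies over 0.1 from the fitted one. A member dim in both groups counts as 0 in the second median. In 586 probe sets all soil arrays exceeded the percentile and the plate group was dim, and in 650 the reverse held. Every ± after a log2 difference is a standard error of the fit, and array values are given in the order A, B, C. Lack of overlap between soil and plate arrays is stated below for single genes as a description only. How common it was over all tested probe sets is not given, so it does not set these genes apart.

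**Figure D1:**
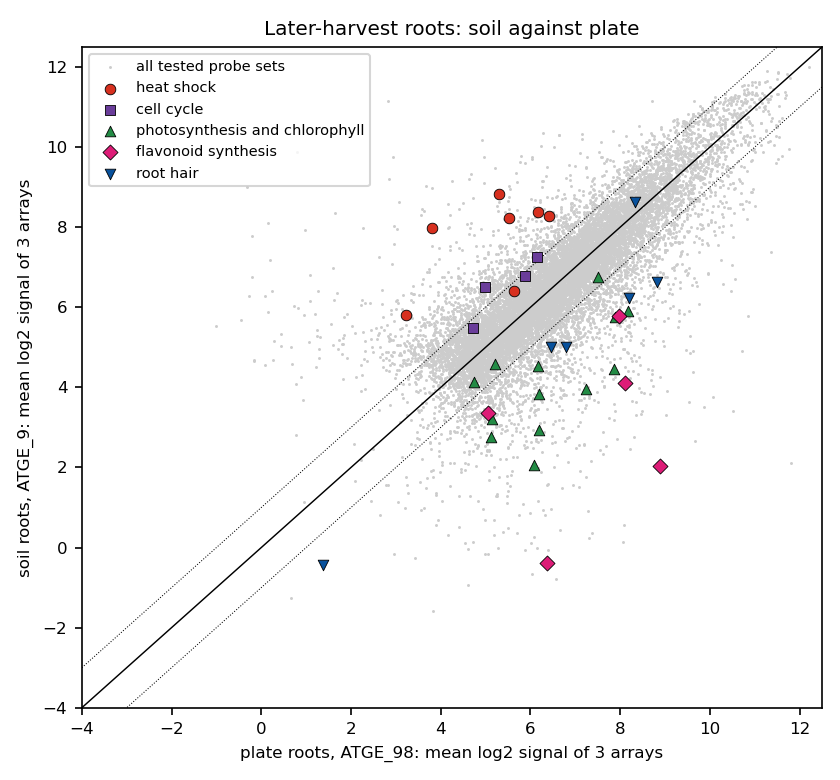
Mean log2 signal of 3 arrays in soil roots (ATGE_9, vertical axis) against plate roots (ATGE_98, horizontal axis) for all 15284 tested probe sets in grey and the tested members of 5 gene lists in colour. The solid line marks equality and the dotted lines a 2-fold difference; the 7 heat shock and 4 cell cycle members lie above the solid line, and the photosynthesis and flavonoid members lie below it.

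Light-harvesting, electron transport and carbon fixation genes were lower in soil roots. Of 13 tested nuclear genes of photosynthesis and chlorophyll, 12 fell, none rose and 1 did not pass, against 32.9% lower over all probe sets. The median log2 difference of the list was -2.27 as fitted and -1.53 with the dim groups of 8 members at the floor, where 8 members fell at least 2-fold. The summed signal of the 13 probe sets was 337 to 405 on the soil arrays, against 1422 to 1597 on the plate arrays, and no member was at 0. The same genes mark shoot tissue, and the part of shoot tissue in the result was not tested.

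RCA, the activase that keeps Rubisco working, had 24.1, 21.03 and 20.9 in soil roots, against 229.5, 209 and 263 in plate roots. All soil arrays were below their 40th percentile, so that RCA was at least 9.26-fold lower in soil roots (adjusted p = 3.07e-18). PSBW, a small subunit of photosystem II, had 19.0, 14.3 and 14.1 in soil roots, against 164, 123 and 168 in plate roots, and was at least 5.97-fold lower in soil roots (adjusted p = 2.57e-15). LHCB4.1, a minor antenna protein of photosystem II, had 60.7, 60.1 and 58.4 in soil roots, against 281, 296 and 285 in plate roots. It was measured above the percentile on all 6 arrays and was 4.81-fold lower in soil roots (log2 difference -2.27 ± 0.10, adjusted p = 2.03e-15). None of the 3 genes had a soil array that reached the lowest plate array.

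PORB, which reduces protochlorophyllide in the light on the way to chlorophyll, had 6.36, 9.74 and 7.40 in soil roots, against 71.9, 64.0 and 83.8 in plate roots, and was at least 2.90-fold lower in soil roots (adjusted p = 4.77e-06). ATPC1, the gamma subunit of the plastid ATP synthase, was 4.34-fold lower in soil roots (log2 difference -2.12 ± 0.13, adjusted p = 1.86e-12), and CHLM, a methyltransferase of chlorophyll synthesis, was 1.66-fold lower in soil roots (log2 difference -0.73 ± 0.077, adjusted p = 1.49e-08). PSAE-1, a subunit of photosystem I on its stromal side, was at least 2.67-fold lower in soil roots (adjusted p = 1.59e-10). The Calvin cycle enzymes SBPASE and PRK were at least 1.38-fold lower and at least 1.397-fold lower (adjusted p = 7.89e-05 and 2.42e-07). LHCB4.2, the member that did not pass, had a log2 difference of -0.63 ± 0.43 (adjusted p = 0.206). Among genes outside the list, chosen after their values were seen, LIL3:2, a light-harvesting-like protein of chlorophyll synthesis, was at least 5.24-fold lower in soil roots (adjusted p = 2.56e-14), and HPR, the peroxisomal hydroxypyruvate reductase of photorespiration, was at least 2.86-fold lower in soil roots (adjusted p = 2.61e-13).

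The plastid's own genes moved less. Of 66 tested plastid-encoded probe sets, 32 fell, 9 rose and 25 did not pass, with a median log2 difference of -0.41. psaB, a core protein of photosystem I, had 221, 215 and 353 in soil roots, against 1144, 1339 and 1077 in plate roots, and was 4.61-fold lower in soil roots (log2 difference -2.21 ± 0.17, adjusted p = 7.19e-11). petN, a small subunit of the cytochrome b6f complex, was chosen after its value was seen and went the other way: it was 3.82-fold higher in soil roots (log2 difference 1.93 ± 0.30, adjusted p = 4.32e-06). Plastid transcripts come from long shared precursors, so that these probe sets do not measure independent units.

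Tested genes of the flavonoid list were lower in soil roots. They were CHIL and glycosyltransferases. The list has 21 members, and those not named here, which include other enzymes of the pathway, were not tested. All 5 tested members fell, with a median log2 difference of -4.01 as fitted. The soil group was dim for 4 of the 5, and with it at the floor the median was -2.19. CHIL, a chalcone isomerase-like protein that raises the output of the flavonoid pathway, had 2.56, 2.56 and 10.6 in soil roots, against 470.3, 485 and 461 in plate roots, and was at least 18.8-fold lower in soil roots (adjusted p = 1.09e-14). UGT78D2, which adds glucose to flavonols and anthocyanidins, had 23.7, 15.0 and 14.3 in soil roots, against 258, 279 and 295 in plate roots, and was at least 11.0-fold lower in soil roots (adjusted p = 5.12e-18). Both were dim on all soil arrays and bright on all plate arrays. UGT84A1, a glucosyltransferase acting on hydroxycinnamates such as sinapate, was at least 3.28-fold lower in soil roots (adjusted p = 2.04e-15), and UGT78D1, a flavonol rhamnosyltransferase, was at least 1.32-fold lower in soil roots (adjusted p = 1.05e-05). AT1G06000, included in the list as a flavonol rhamnosyltransferase, was measured on both sides and was 4.57-fold lower in soil roots (log2 difference -2.19 ± 0.10, adjusted p = 2.87e-15).

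Of the light signalling list, only HYH had a tested probe set. HYH is a bZIP factor closely related to HY5 that acts in light responses. It had 1.02, 5.49 and 4.52 in soil roots, against 118, 134 and 117 in plate roots, and was at least 4.88-fold lower in soil roots (adjusted p = 3.83e-12). An F-box gene and a circadian gene, chosen after their values were seen, also fell: AFR, a component of far-red light signalling, was at least 4.56-fold lower (adjusted p = 1.25e-14), and COR27, a cold-induced gene of the clock, was at least 1.34-fold lower (adjusted p = 1.42e-06). HYH averaged 3.68 ± 2.35 and 5.998 ± 1.53 in the later and earlier soil roots, against means between 95.9 ± 7.34 (ATGE_93) and 123 ± 9.33 (ATGE_98) in the 5 plate groups, which span media with and without sucrose and continuous light or long days (SD, n = 3 each).

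UDP-glycosyltransferases, which attach sugars to hormones, phenolics and foreign compounds, fell as a family. Of 30 tested members, 22 fell, 3 rose and 5 did not pass, with a median log2 difference of -1.27 as fitted and -0.73 with dim groups at the floor. The flavonoid members above are counted here too. UGT73B1 had 21.9, 20.8 and 23.4 in soil roots, against 397, 404 and 388 in plate roots, and was at least 15.8-fold lower in soil roots (adjusted p = 8.69e-18). UGT72E1 and UGT72E2, which glucosylate monolignols, were 6.64-fold lower in soil roots (log2 difference -2.73 ± 0.081, adjusted p = 1.5e-18) and 3.65-fold lower in soil roots (log2 difference -1.87 ± 0.076, adjusted p = 5.34e-16). UGT73B4 and UGT73B5, which lie next to each other in the genome, were at least 4.36-fold lower and at least 7.65-fold lower (adjusted p = 2.89e-14 and 9.65e-12). UGT87A2 was at least 9.19-fold lower in soil roots (adjusted p = 1.01e-16). The members that rose were UGT71C1, UGT71C3 and UGT72E3, the largest of them 1.71-fold higher (adjusted p = 3.28e-05). UGT72E3 did not pass when soil replicate 1, soil replicate 2 or plate replicate 2 was left out (adjusted p = 0.0719, 0.0594 and 0.0682).

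Glutathione transferases and cytochromes P450, further enzymes of the handling of foreign and stress-derived compounds, were mostly lower. Of 12 glutathione transferases, 7 fell and 4 rose, with a median log2 difference of -0.998 as fitted and -0.48 with dim groups at the floor. GSTU22 had 98.1, 108 and 111 in soil roots, against 891, 775 and 757 in plate roots, and was 7.64-fold lower in soil roots (log2 difference -2.93 ± 0.078, adjusted p = 2.32e-19). GSTU25 was 5.72-fold lower in soil roots (log2 difference -2.52 ± 0.11, adjusted p = 4.56e-15). ATGSTF13, of the phi class, moved against them with 214, 283 and 263 in soil roots, against 16.0, 17.57 and 20.14 in plate roots, and was at least 9.68-fold higher in soil roots (adjusted p = 2.8e-18). For none of these 3 did the arrays of soil and plate overlap. Of 11 cytochromes P450, 7 fell and 1 rose, with a median of -0.84. All 7 that fell were CYP71B genes, and probe sets of close paralogues may share signal. No tested P450 gene outside CYP71B fell: CYP78A9 rose, and CYP51G2, CYP718 and CYP84A4 did not pass. The count therefore gives no direction for cytochromes P450 as a whole. CYP71B23 was 9.95-fold lower in soil roots (log2 difference -3.31 ± 0.11, adjusted p = 8.74e-18), CYP71B6 was 4.52-fold lower in soil roots (log2 difference -2.18 ± 0.073, adjusted p = 1.57e-17) and CYP71B26 was at least 4.42-fold lower in soil roots (adjusted p = 7.17e-16). AER, an alkenal reductase, and MSRB6, a methionine sulfoxide reductase, both chosen after their values were seen, were at least 6.77-fold lower and at least 16.8-fold lower (adjusted p = 4.03e-10 and 1.67e-19).

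**Figure D2:**
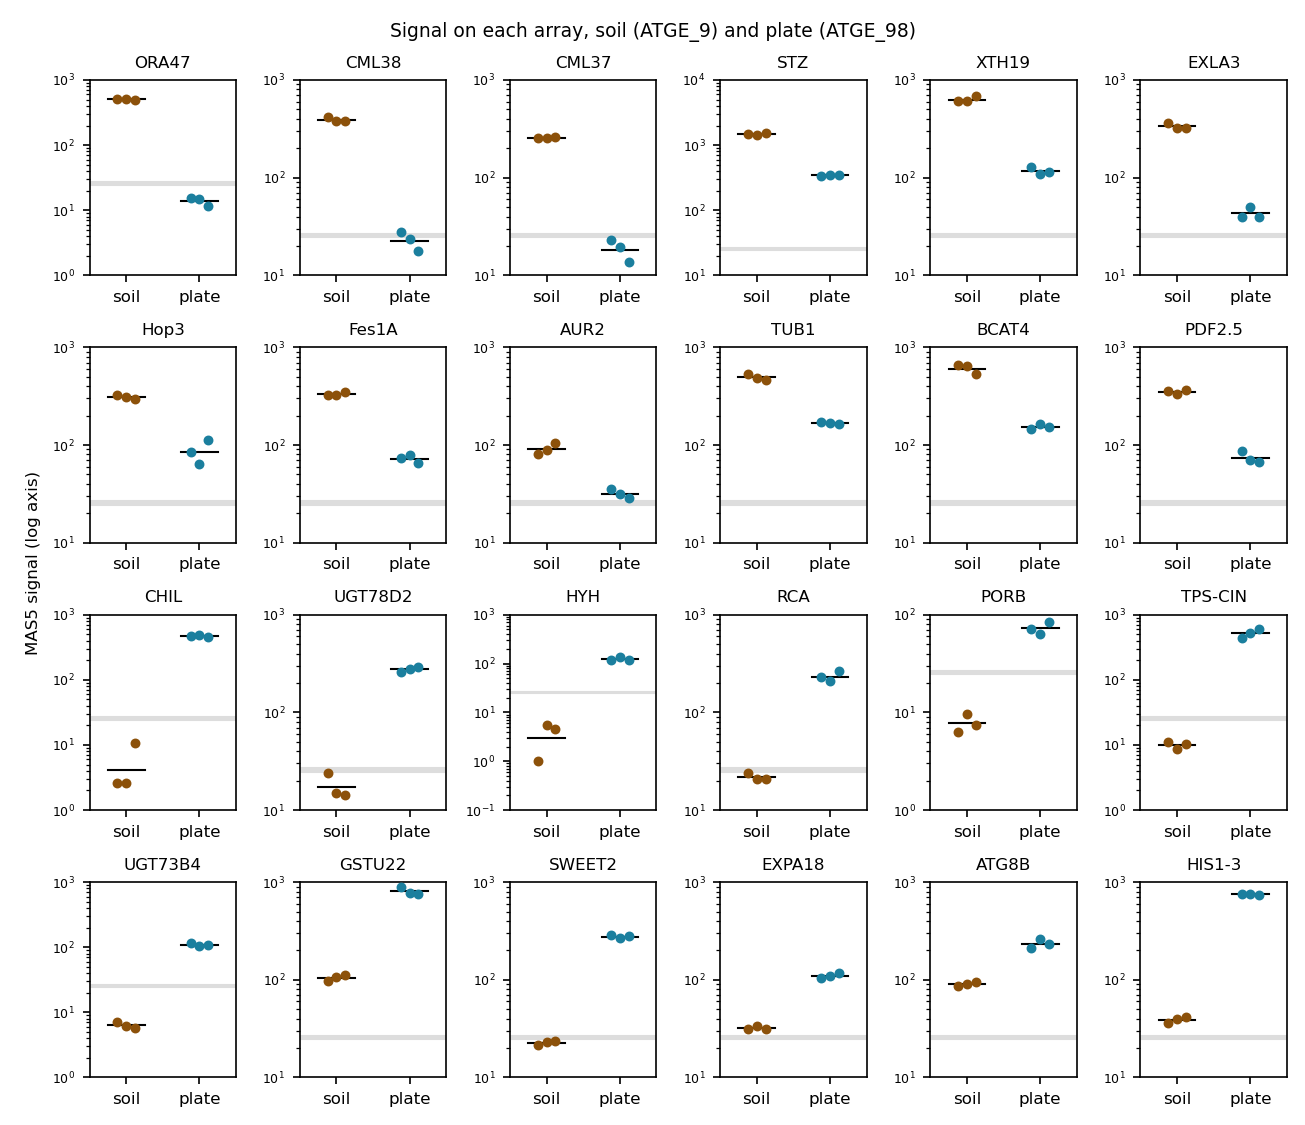
MAS5 signal on a log axis for 24 genes on each of the 3 soil arrays (ATGE_9, left) and 3 plate arrays (ATGE_98, right) of the later harvest. Black bars are geometric means of 3 arrays and the grey band spans the 40th percentile of the 6 arrays. In every panel the points of soil and plate do not overlap, with soil above plate in the upper 2 rows and below it in the lower 2 rows. For genes picked from the largest changes this was a condition of the choice.

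Root hair genes were lower in soil roots. Of 6 tested members, 5 fell and 1 rose, with a median log2 difference of -1.80 as fitted and -1.61 with dim groups at the floor. EXPA18, an expansin of root hair cells, had 31.4, 34.0 and 31.1 in soil roots, against 105, 109 and 118 in plate roots, and was 3.44-fold lower in soil roots (log2 difference -1.78 ± 0.074, adjusted p = 8.38e-16). EXPA7, the second expansin of this kind, had 31.7, 31.6 and 33.1 in soil roots, against 94.2, 75.1 and 94.3 in plate roots, and was 2.72-fold lower in soil roots (log2 difference -1.44 ± 0.19, adjusted p = 4.45e-07). No soil array of either gene reached a plate array. AT4G26010 and AT1G30870, placed in the list as root hair genes, were 4.55-fold lower in soil roots (log2 difference -2.19 ± 0.074, adjusted p = 1.7e-17) and 3.90-fold lower in soil roots (log2 difference -1.96 ± 0.11, adjusted p = 1.42e-13). XTH26 passed with the falls, but was dim in both groups and did not pass without plate replicate 3 (adjusted p = 0.117). The summed signal of the list was 615 to 653 on the soil arrays and 1220.4 to 1294 on the plate arrays.

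Wall-loosening genes moved in both directions. Xyloglucan enzymes, which cut and rejoin the hemicellulose that ties cellulose fibrils, were mostly higher: 6 of 8 rose and 1 fell, with a median of 1.297. XTH19 had 604, 611 and 682 in soil roots, against 128, 109 and 115 in plate roots, and was 5.39-fold higher in soil roots (log2 difference 2.43 ± 0.12, adjusted p = 3.96e-14). XTH16 had 256, 228 and 248 in soil roots, against 34.1, 35.3 and 49.3 in plate roots, and was 6.25-fold higher in soil roots (log2 difference 2.64 ± 0.17, adjusted p = 3.6e-12). Their arrays did not overlap between soil and plate. XTH33 was 2.71-fold higher in soil roots (log2 difference 1.44 ± 0.15, adjusted p = 7.46e-09) and XTH18 was 2.23-fold higher in soil roots (log2 difference 1.16 ± 0.14, adjusted p = 9.27e-08), whereas XTH32 did not pass, with a log2 difference of -0.14 ± 0.11 (adjusted p = 0.236).

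Among 14 expansins, 5 rose, 6 fell and 3 did not pass, shares close to those of all probe sets, and the median was 0.03. The expansin-like A genes were on the higher side. EXLA3 had 361, 321 and 326 in soil roots, against 39.98, 50.3 and 39.7 in plate roots, and was 7.79-fold higher in soil roots (log2 difference 2.96 ± 0.37, adjusted p = 2.8e-07). EXLA1 was 2.81-fold higher in soil roots (log2 difference 1.49 ± 0.085, adjusted p = 2.91e-13) and EXLA2 was at least 2.09-fold higher in soil roots (adjusted p = 5.67e-07). Alpha-expansins besides the root hair pair included EXPA9, which was 2.39-fold higher in soil roots (log2 difference 1.26 ± 0.13, adjusted p = 1.22e-08), and EXPA15 and EXPA4, which were 2.23-fold lower and 2.01-fold lower (adjusted p = 1.67e-13 and 1.24e-08). Of 7 cellulose synthase relatives, 5 rose and 2 fell. CSLC04, which makes the xyloglucan backbone, was 2.70-fold higher in soil roots (log2 difference 1.43 ± 0.11, adjusted p = 6.19e-11), and CSLD2, known from root hair growth, was 1.35-fold lower in soil roots (log2 difference -0.43 ± 0.069, adjusted p = 7.77e-06).

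Further growth-related genes with a symbol were picked after their values were seen. GH9B13, a wall hydrolase of glycosyl hydrolase family 9, had 789.5, 817 and 629 in soil roots, against 136, 123 and 125 in plate roots, and was 5.80-fold higher in soil roots (log2 difference 2.54 ± 0.11, adjusted p = 3.69e-15). EXO, a protein of brassinosteroid-promoted growth, had 816, 869 and 891 in soil roots, against 177, 206 and 195 in plate roots, and was 4.46-fold higher in soil roots (log2 difference 2.16 ± 0.071, adjusted p = 1.18e-17). SKU5, a surface glycoprotein involved in the direction of root growth, was 2.89-fold higher in soil roots (log2 difference 1.53 ± 0.15, adjusted p = 2.97e-09), and its relative sks15 was 4.75-fold higher in soil roots (log2 difference 2.25 ± 0.14, adjusted p = 1.42e-12). Lack of overlap between soil and plate arrays was a condition for picking these 4 genes. Among 3 class III peroxidases found by their symbol, 2 rose and PRX52, dim in both groups, fell. Peroxidases that the annotation names by locus only are not in this count. AT5G64120, a peroxidase of that kind given below, was 55.9-fold lower in soil roots (log2 difference -5.81 ± 0.10). The count therefore gives no direction for root peroxidases as a whole. Prx37 was 2.89-fold higher in soil roots (log2 difference 1.53 ± 0.092, adjusted p = 7.77e-13) and PRXR1 was 1.27-fold higher in soil roots (log2 difference 0.35 ± 0.067, adjusted p = 7.84e-05).

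Genes of dividing cells were higher in soil roots. All 4 tested members of the cell cycle list rose, with a median log2 difference of 1.01. AUR2, an Aurora kinase of mitosis, had 81.0, 88.0 and 104 in soil roots, against 35.3, 31.2 and 29.0 in plate roots, and was 2.85-fold higher in soil roots (log2 difference 1.51 ± 0.14, adjusted p = 2.09e-09). AUR1 had 153, 158 and 147 in soil roots, against 73.7, 68.2 and 70.3 in plate roots, and was 2.16-fold higher in soil roots (log2 difference 1.11 ± 0.084, adjusted p = 5.48e-11). AUR3 and PRL, of which PRL is a subunit of the helicase that licenses replication origins, were 1.69-fold higher and 1.87-fold higher (adjusted p = 8.84e-06 and 2.34e-08). In all 4 genes the lowest soil array exceeded the highest plate array. Of 6 histone genes, 5 rose. The H2B gene HTB2 was 2.31-fold higher in soil roots (log2 difference 1.21 ± 0.094, adjusted p = 7.62e-11), and HTR12, the histone H3 variant of centromeres, was at least 1.52-fold higher in soil roots (adjusted p = 4.95e-06).

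The sixth gene of the histone family, HIS1-3, is a linker histone known to be induced by drought and abscisic acid. It had 36.3, 39.6 and 41.6 in soil roots, against 764, 764 and 736 in plate roots, and was 19.3-fold lower in soil roots (log2 difference -4.27 ± 0.12, adjusted p = 8.89e-19). Other genes of replication and mitosis, chosen after their values were seen, were higher. TOPII, topoisomerase II, was 2.68-fold higher in soil roots (log2 difference 1.42 ± 0.15, adjusted p = 1.38e-08). ICU2, the catalytic subunit of DNA polymerase alpha, was at least 1.87-fold higher in soil roots (adjusted p = 6.3e-08). 3xHMG-box2, which binds mitotic chromosomes, was 2.62-fold higher in soil roots (log2 difference 1.39 ± 0.12, adjusted p = 2.91e-10). The spindle checkpoint genes BUB3.1 and BUBR1 were 2.44-fold higher and at least 1.31-fold higher (adjusted p = 3.05e-11 and 3.06e-06).

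Tubulins and actins, the building blocks of the cytoskeleton, were also mostly higher: 7 of 8 rose and 1 fell, with a median of 0.87. TUB1 had 528, 490.1 and 468 in soil roots, against 171, 167 and 166 in plate roots, and was 2.94-fold higher in soil roots (log2 difference 1.56 ± 0.060, adjusted p = 2.32e-16). TUB7 was 2.06-fold higher in soil roots (log2 difference 1.04 ± 0.069, adjusted p = 4.26e-12) and TUA6 was 1.64-fold higher in soil roots (log2 difference 0.71 ± 0.052, adjusted p = 3.04e-11). TUA1, an alpha-tubulin known from pollen, was the member that fell and was 1.63-fold lower (adjusted p = 1.72e-05). Members of these families are alike in sequence, and probe sets of close paralogues may share signal.

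Calcium sensors included some of the largest rises with a known role, although the family moved in both directions. Of 7 calmodulin-like proteins found by their symbol, 3 rose, 1 fell and 3 did not pass. Members that the annotation names by locus only, such as AT1G76640 below, are not in this count. CML38 had 414, 378 and 378 in soil roots, against 27.7, 23.58 and 17.58 in plate roots, and was 17.3-fold higher in soil roots (log2 difference 4.11 ± 0.32, adjusted p = 8.77e-11). CML37 had 255, 252 and 259.8 in soil roots, against 22.9, 19.5 and 13.8 in plate roots, and was at least 9.84-fold higher in soil roots (adjusted p = 1.46e-06). The soil arrays of both genes lay far above every plate array. CML23 had 245, 241 and 199.8 in soil roots, against 34.7, 24.2 and 18.4 in plate roots, and was 9.13-fold higher in soil roots (log2 difference 3.19 ± 0.17, adjusted p = 5.21e-14). AT1G76640, which the RefSeq table also lists as CML39, lies next to CML38 and had 82.2, 84.7 and 69.4 in soil roots, against 0.822, 0.586 and 1.18 in plate roots. It was among the 12 largest rises and was at least 3.02-fold higher in soil roots (adjusted p = 4.08e-07). CML42 fell and was 2.72-fold lower in soil roots (log2 difference -1.44 ± 0.081, adjusted p = 2.24e-13).

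ORA47, an AP2/ERF factor that activates jasmonate synthesis genes, had 507, 518 and 494 in soil roots, against 15.6, 15.1 and 11.4 in plate roots. It was dim on all plate arrays and was at least 19.5-fold higher in soil roots (adjusted p = 1.1e-14). STZ, a zinc finger repressor induced by many stresses, had 1460.3, 1426 and 1558 in soil roots, against 340.1, 343 and 344 in plate roots, and was 4.32-fold higher in soil roots (log2 difference 2.11 ± 0.11, adjusted p = 3.13e-14). PUB19, a U-box ubiquitin ligase of drought and abscisic acid responses, was at least 6.90-fold higher in soil roots (adjusted p = 2.9e-13), and OPCL1, a CoA ligase of jasmonate synthesis, was 3.30-fold higher in soil roots (log2 difference 1.72 ± 0.092, adjusted p = 9.62e-14). These 4 genes were chosen after their values were seen, among genes whose soil and plate arrays did not overlap. PDF1.4, a defensin and the single tested member of the jasmonate and ethylene list, fell and was at least 1.52-fold lower in soil roots (adjusted p = 0.000223). Of 5 WRKY factors, WRKY53 and WRKY22 rose and WRKY6 and WRKY47 fell. WRKY53 was 1.92-fold higher in soil roots (log2 difference 0.94 ± 0.18, adjusted p = 6.08e-05), and WRKY6, a factor of senescence and phosphate responses, was 3.88-fold lower in soil roots (log2 difference -1.96 ± 0.086, adjusted p = 2.38e-15). Of 10 bZIP factors, 4 rose and 3 fell, and BZIP61 was 4.11-fold higher (adjusted p = 1.79e-10).

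**Figure D3:**
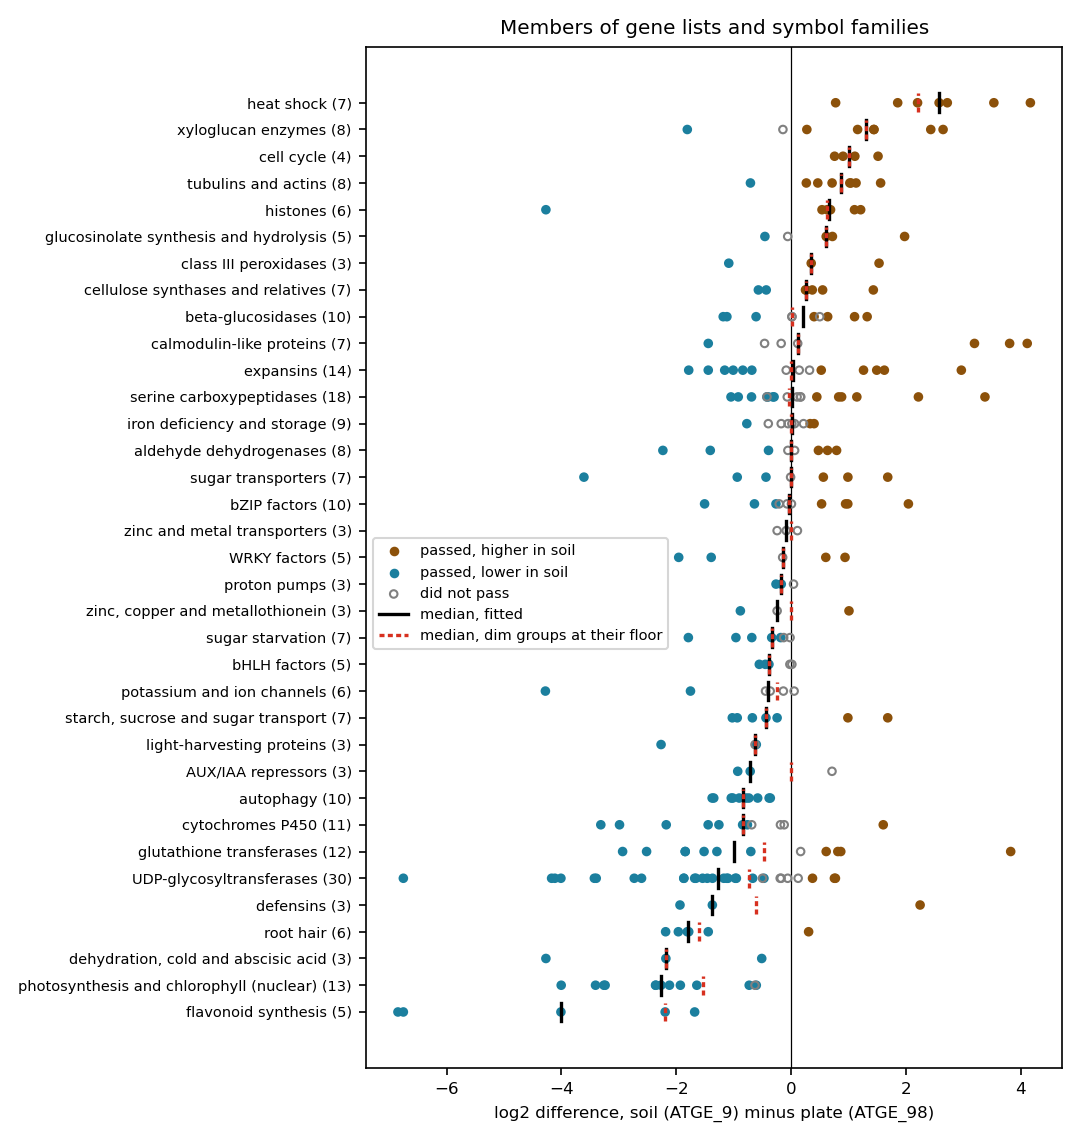
Log2 difference of soil (ATGE_9) minus plate (ATGE_98) for each tested member of the 11 lists and 24 symbol families with at least 3 tested probe sets (number in brackets), ordered by their fitted median, shown as a black bar. The dotted red bar is the median with dim groups at their floor. Filled points passed an adjusted p of 0.05 and open points did not; heat shock stands at the top with medians of 2.58 (fitted) and 2.201 (floor), and flavonoid synthesis at the bottom with -4.01 (fitted) and -2.19 (floor).

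Heat shock genes, whose chaperones refold or hold damaged proteins, rose in the later soil roots. All 7 tested members passed, with a median log2 difference of 2.58 as fitted and 2.201 with the dim plate groups of 2 members at the floor. Their summed signal was 1745 to 1821 on the soil arrays, against 311 to 332 on the plate arrays. AT5G48570, listed also as ROF2 or FKBP65, an immunophilin of the heat response, had 446, 461 and 450.3 in soil roots, against 38.8, 38.4 and 40.4 in plate roots, and was 11.5-fold higher in soil roots (log2 difference 3.53 ± 0.10, adjusted p = 4.38e-19). Fes1A, a partner of cytosolic HSP70, had 322, 323 and 348 in soil roots, against 72.8, 78.5 and 65.1 in plate roots, and was 4.60-fold higher in soil roots (log2 difference 2.201 ± 0.094, adjusted p = 1.36e-15). Hop3, which links HSP70 to HSP90, had 323, 309.8 and 295 in soil roots, against 85.8, 64.2 and 113 in plate roots, and was 3.62-fold higher in soil roots (log2 difference 1.85 ± 0.17, adjusted p = 2.11e-09). The soil arrays of these 3 genes all lay above the highest plate array.

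AT1G53540 and AT2G29500, included in the list as small heat shock proteins, were at least 9.68-fold higher in soil roots (adjusted p = 1.33e-13) and 6.58-fold higher in soil roots (log2 difference 2.72 ± 0.11, adjusted p = 8.9e-16). HSA32, which prolongs acquired heat tolerance, was 1.71-fold higher in soil roots (log2 difference 0.77 ± 0.13, adjusted p = 2.35e-05), and ATHSP22.0 was at least 2.15-fold higher in soil roots (adjusted p = 0.00174). The earlier harvest looked different for this list. The earlier soil roots had a median log2 difference of -0.13 from their plate roots. Hop3 was 309 ± 13.8 in later soil roots and 87.8 ± 24.6 in later plate roots, and 30.5 ± 9.41 in earlier soil roots and 79.1 ± 11.1 in earlier plate roots (SD, n = 3 each).

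The difference between harvests in the soil effect passed for 6 of the 7 members, against 30.5% over all probe sets in either direction, and its median was 3.26 on the log2 scale. It was 4.09 ± 0.16 for AT2G29500 (adjusted p = 5.44e-15), 3.81 ± 0.32 for AT1G53540 (3.59e-09) and 3.52 ± 0.14 for AT5G48570 (5.44e-15). It was 3.26 ± 0.25 for Hop3 (5.37e-10), 2.33 ± 0.13 for Fes1A (3.65e-12) and 1.43 ± 0.19 for HSA32 (3.36e-06). ATHSP22.0 did not pass this test, with a difference of 1.18 ± 0.95 (adjusted p = 0.366). AT1G53540 was dim in both earlier groups and the later plate group, and AT2G29500 in the earlier soil group, so that their fitted differences are no bounds. GAPDH's 3' to 5' ratio, 1.22 ± 0.177 in later soil and 1.15 ± 0.164 in later plate roots, was 1.53 ± 0.121 in earlier soil and 0.718 ± 0.107 in earlier plate roots (SD, n = 3 each), and for actin it was 10.3 ± 1.53 in earlier soil and 8.24 ± 0.900 in earlier plate roots. The part of RNA integrity in any difference between harvests was not tested. The labels give both soil groups 23 °C, and the time of day and handling at harvest are not in them. The part of temperature, time of day or handling in the heat shock values was not tested. In the family of genes with an HSP symbol, Hsp70-2 was 1.62-fold higher in soil roots (log2 difference 0.70 ± 0.10, adjusted p = 2.43e-06).

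The autophagy genes tested were ATG3 and members of the ATG8 family, and they were lower without exception. All 10 tested members fell, against 32.9% over all probe sets, with a median log2 difference of -0.84. ATG8 proteins coat the membrane that encloses cell material for breakdown in the vacuole. Probe sets of close ATG8 paralogues may share signal, and other autophagy genes were not in the count. ATG8B had 86.0, 90.4 and 94.9 in soil roots, against 214, 262 and 231 in plate roots, and was 2.60-fold lower in soil roots (log2 difference -1.38 ± 0.10, adjusted p = 1.42e-11). ATG8H had 91.5, 75.8 and 75.4 in soil roots, against 217, 216 and 184 in plate roots, and was 2.54-fold lower in soil roots (log2 difference -1.35 ± 0.10, adjusted p = 1.42e-11). The plate arrays of both genes exceeded all soil arrays. ATG8D and ATG8E were 2.02-fold lower and 2.06-fold lower (adjusted p = 6.6e-10 and 2.23e-09), and ATG3, the enzyme that attaches lipid to ATG8, was 1.498-fold lower in soil roots (log2 difference -0.58 ± 0.079, adjusted p = 8.45e-07). The other members of the family fell by less than 2-fold. Vacuolar processing enzymes, proteases of the same compartment chosen after their values were seen, fell too: GAMMA-VPE was 4.06-fold lower in soil roots (log2 difference -2.02 ± 0.075, adjusted p = 1.13e-16) and ALPHA-VPE was at least 3.97-fold lower in soil roots (adjusted p = 4.2e-15).

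Genes known to rise when sugar runs short were lower or did not pass. Of 7 tested, 5 fell and 2 did not pass, with a median of -0.34. MGL, which breaks down methionine, was 1.95-fold lower in soil roots (log2 difference -0.96 ± 0.074, adjusted p = 6.97e-11), and PPDK, an enzyme of pyruvate recycling, was at least 2.55-fold lower in soil roots (adjusted p = 1.81e-06). MCCB and IVD, of leucine breakdown, were 1.61-fold lower and 1.26-fold lower (adjusted p = 9.84e-06 and 9.73e-05). The earlier fall of MGL was deeper, at a log2 difference of -2.84 ± 0.074, and the difference between harvests was 1.88 ± 0.10 (adjusted p = 2.65e-12).

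The symbol family of sugar transporters was split: of 7 tested, 3 rose, 3 fell and 1 did not pass, with a median of -0.01. In the separate list of starch, sucrose and sugar transport, 2 of 7 tested genes rose and 5 fell, with a median of -0.44. SWEET2, a tonoplast transporter that limits sugar loss from roots, counted in the family of sugar transporters, had 21.4, 23.1 and 23.9 in soil roots, against 285, 266 and 282 in plate roots, and was at least 11.0-fold lower in soil roots (adjusted p = 6.11e-17). TMT1, which loads sugars into the vacuole, was 2.03-fold lower in soil roots (log2 difference -1.02 ± 0.13, adjusted p = 2.17e-07), and SWEET11, known from phloem loading in leaves, was 1.98-fold higher in soil roots (log2 difference 0.99 ± 0.12, adjusted p = 1.11e-07). cwINV6, a cell wall fructan exohydrolase chosen after its value was seen, was 2.80-fold higher in soil roots (log2 difference 1.49 ± 0.11, adjusted p = 3.16e-11).

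Among genes of secondary compounds, glucosinolate synthesis was partly higher. Of 5 tested members, 3 rose and 1 fell. BCAT4, which starts the elongation of methionine for aliphatic glucosinolates, had 658, 638 and 532 in soil roots, against 147, 164 and 153 in plate roots, and was 3.93-fold higher in soil roots (log2 difference 1.97 ± 0.075, adjusted p = 1.61e-16). Its soil arrays exceeded all plate arrays. AT2G31790 and GSTU20, further members, were 1.65-fold higher and 1.53-fold higher (adjusted p = 1e-07 and 0.000253), and PYK10, the beta-glucosidase of root ER bodies, was 1.37-fold lower in soil roots (log2 difference -0.46 ± 0.084, adjusted p = 4.45e-05). Jacalin lectins, chosen after their values were seen, fell more: JAL33 was 3.51-fold lower in soil roots (log2 difference -1.81 ± 0.082, adjusted p = 4.38e-15) and JAL22 was 4.49-fold lower in soil roots (log2 difference -2.17 ± 0.066, adjusted p = 2.85e-18). TPS-CIN, the root synthase of the monoterpene 1,8-cineole, had 11.0, 8.56 and 10.2 in soil roots, against 435, 516 and 613 in plate roots, and was at least 20.5-fold lower in soil roots (adjusted p = 8.57e-19). All its soil arrays were dim. FACT, which makes the caffeates of root wax and was chosen after its values were seen, was 4.38-fold lower in soil roots (log2 difference -2.13 ± 0.084, adjusted p = 3.14e-16).

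Dehydration, cold and abscisic acid markers fell, all 3 of those tested, HIS1-3 among them. LTI30, a dehydrin, had 264, 232 and 224 in soil roots, against 1059, 1065 and 1132 in plate roots, and was 4.54-fold lower in soil roots (log2 difference -2.18 ± 0.060, adjusted p = 4.23e-19). COR47, a second dehydrin, was 1.43-fold lower in soil roots (log2 difference -0.51 ± 0.076, adjusted p = 2.84e-06). TIL, a temperature-induced lipocalin chosen after its values were seen, was 3.77-fold lower in soil roots (log2 difference -1.92 ± 0.067, adjusted p = 3.6e-17). The soil roots were grown 3 °C above the plate roots by the labels, and the part of temperature in these values cannot be told apart.

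Mineral nutrition was thinly covered, and most of its tested genes moved little. Of 9 iron probe sets, 2 rose, 1 fell and 6 did not pass, fewer on either side than over all probe sets, with a median of 0.01. AT3G13610, listed also as F6'H1, the enzyme behind the scopoletin-type coumarins that roots release under iron shortage, was 1.71-fold lower in soil roots (log2 difference -0.77 ± 0.058, adjusted p = 4.44e-11). BHLH101, an iron deficiency factor, did not pass and was dim in both groups, and PYE, a second regulator, had a log2 difference of 0.22 ± 0.11 (adjusted p = 0.0784). The gene AT1G74770 had 2 probe sets, which disagreed: 1 passed with a log2 difference of 0.33 ± 0.10 (adjusted p = 0.00542), and the other was dim in both groups with -0.17 ± 0.47 (adjusted p = 0.759).

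LPR1, a ferroxidase of the root tip response to low phosphate and the single phosphate gene tested, had 11.97, 14.3 and 12.52 in soil roots, against 71.3, 75.8 and 79.7 in plate roots, and was at least 3.005-fold lower in soil roots (adjusted p = 1.04e-14). MT1C, a metallothionein, was 1.85-fold lower in soil roots (log2 difference -0.88 ± 0.083, adjusted p = 2.32e-09), and CCS, the copper chaperone of superoxide dismutase, was 2.01-fold higher in soil roots (log2 difference 1.01 ± 0.16, adjusted p = 7.55e-06). APS3, an ATP sulfurylase of sulfate assimilation, was 1.59-fold higher in soil roots (log2 difference 0.67 ± 0.13, adjusted p = 0.000129). CHX16, a cation exchanger counted with ion channels, was at least 3.83-fold lower in soil roots (adjusted p = 1.02e-10). Nitrogen uptake, root tip, camalexin, endoplasmic reticulum folding, senescence, oxidative stress and root triterpene lists had no member that could be tested.

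Defence genes gave no common direction. GRX480, a glutaredoxin induced by salicylate, was 1.53-fold higher in soil roots (log2 difference 0.62 ± 0.11, adjusted p = 2.4e-05), and SAG101, a partner in immune receptor signalling, did not pass (log2 difference -0.08 ± 0.22, adjusted p = 0.758). BIK1, a kinase behind pattern receptors, was 2.31-fold lower in soil roots (log2 difference -1.21 ± 0.10, adjusted p = 3.9e-10). Of 3 defensins, PDF2.5 rose with 357, 330.5 and 369 in soil roots, against 87.0, 70.6 and 66.4 in plate roots, and was 4.74-fold higher in soil roots (log2 difference 2.24 ± 0.10, adjusted p = 1.91e-15). PDF1.4, given above, fell, and so did PDF2.1, which was 2.59-fold lower in soil roots (log2 difference -1.37 ± 0.10, adjusted p = 5.44e-11). ChiC, a class V chitinase chosen after its values were seen, was 9.63-fold lower in soil roots (log2 difference -3.27 ± 0.10, adjusted p = 1.24e-18).

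Vascular and endodermal markers were thinly covered, and the few tested moved little. Tested were 1 of 24 members of the xylem list, 1 of 13 of the phloem and cambium list and 2 of 24 of the endodermis list. CLE41, a peptide that maintains the procambium, was 1.295-fold higher in soil roots (log2 difference 0.37 ± 0.10, adjusted p = 0.00288), IRX15, of xylan synthesis, had a log2 difference of -0.37 ± 0.17 (adjusted p = 0.057), and GSO1, a receptor kinase needed for the Casparian strip, was 1.14-fold lower in soil roots (log2 difference -0.18 ± 0.077, adjusted p = 0.039). AT1G61590, the other tested member of the endodermis list, also fell, by more than GSO1 and by less than 2-fold. GSO1 did not pass without soil replicate 1 or 2 or plate replicate 1 or 3 (adjusted p = 0.17, 0.0784, 0.0794 and 0.16), and IRX15 passed without soil replicate 2 (adjusted p = 0.00775). HCT, of lignin precursor synthesis, had a log2 difference of -0.10 ± 0.055 (adjusted p = 0.103), and CCR2, a cinnamoyl-CoA reductase, was 1.76-fold lower in soil roots (log2 difference -0.81 ± 0.12, adjusted p = 3.08e-06). ARR15, a cytokinin response regulator and the single one tested, was at least 1.16-fold higher in soil roots (adjusted p = 0.000262), and AT4G17260, the single hypoxia gene tested, was 2.11-fold higher in soil roots (log2 difference 1.08 ± 0.089, adjusted p = 2.57e-10). Of 3 AUX/IAA repressors 2 fell, of which IAA18 was 1.91-fold lower in soil roots (log2 difference -0.93 ± 0.085, adjusted p = 1.39e-09), and GH3.3, an enzyme that conjugates auxin to amino acids and was chosen after its values were seen, was at least 1.32-fold lower in soil roots (adjusted p = 1.17e-11).

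Most of the largest changes belonged to genes that the annotation used here names by locus only. AT4G33720 had 2267, 2253 and 2326 in soil roots, against 6.53, 6.81 and 8.15 in plate roots, and was at least 87.7-fold higher in soil roots (adjusted p = 9.91e-17). It showed the largest fitted rise. AT1G67865 had 637, 611 and 526 in soil roots, against 6.91, 7.57 and 7.19 in plate roots, and was at least 22.7-fold higher in soil roots (adjusted p = 1.03e-12). AT3G29430 had 133, 157 and 145 in soil roots, against 0.267, 6.11 and 0.907 in plate roots, and was at least 5.57-fold higher in soil roots (adjusted p = 2.37e-06). In all 3 genes the plate arrays were dim. Bright soil arrays and lack of overlap between soil and plate arrays were conditions of this ranking. AT1G67865 was dim in every other group, so it entered the test only through the later soil arrays. The same held for AGL79, AT5G59305 and AT1G67860, given below. AT5G52760, AT2G32140 and AT5G62330 were at least 4.14-fold higher, at least 4.33-fold higher and at least 3.29-fold higher (adjusted p = 4.06e-07, 2.26e-08 and 1.18e-11). AGL79, a MADS-box gene, was at least 2.54-fold higher in soil roots (adjusted p = 2.61e-05), and the remaining 4 of the 12 largest fitted rises, AT5G59305, AT1G80320, AT2G17660 and AT1G67860, were at least 1.79-fold higher, at least 2.98-fold higher, at least 1.98-fold higher and at least 2.25-fold higher (adjusted p = 0.000993, 4.27e-08, 6.73e-06 and 0.000121).

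On the falling side, AT5G64120, listed also as peroxidase 71, had 36.9, 30.02 and 24.8 in soil roots, against 1628, 1772 and 1668 in plate roots. It was above the percentile on all 6 arrays and was 55.9-fold lower in soil roots (log2 difference -5.81 ± 0.10, adjusted p = 1.36e-22). AT3G57020 had 13.9, 8.19 and 10.4 in soil roots, against 1552, 1518 and 1349.7 in plate roots, and was at least 58.5-fold lower in soil roots (adjusted p = 8.15e-23). AT2G41380 had 1.13, 3.06 and 0.379 in soil roots, against 265, 274 and 269 in plate roots, and was at least 10.7-fold lower in soil roots (adjusted p = 6.43e-14). Bright plate arrays and lack of overlap between soil and plate arrays were conditions of this ranking. AT5G62210, AT2G16890 and AT3G52740 were at least 10.7-fold lower, at least 6.32-fold lower and at least 3.78-fold lower (adjusted p = 2.14e-16, 1.09e-14 and 6.21e-11). AT3G49960, AT1G64500 and AT5G50100 were at least 3.34-fold lower, at least 2.58-fold lower and at least 2.70-fold lower (adjusted p = 9.5e-18, 5.09e-15 and 2.53e-10).

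Some of the largest changes were neighbours in the genome. Of 2735 pairs of adjacent protein-coding genes with both members tested, 8 had both members past the threshold and at least 4-fold changed with dim groups at the floor. In 5 of these pairs both rose, in 2 both fell and in 1 they moved in opposite directions. The pairs that rose were AT2G41800 with AT2G41810, AT3G29410 with AT3G29430, AT5G52750 with AT5G52760, AT4G27652 with AT4G27654, and AT4G27654 with AT4G27657. In the run of 3 adjacent genes, AT4G27652 was 11.2-fold higher, AT4G27654 was 23.5-fold higher and AT4G27657 was at least 9.52-fold higher in soil roots. The pairs that fell were UGT73B5 with UGT73B4, and AT2G28710 with AT2G28720, which were at least 5.36-fold and at least 5.96-fold lower in soil roots. In the opposite pair, AT5G38700 was at least 12.1-fold higher and AT5G38710 at least 4.68-fold lower in soil roots. Members of these pairs not named elsewhere were chosen after their values were seen. Neighbours that are near-identical copies may share signal on these probe sets, and how alike the copies are was not examined.

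**Figure D4:**
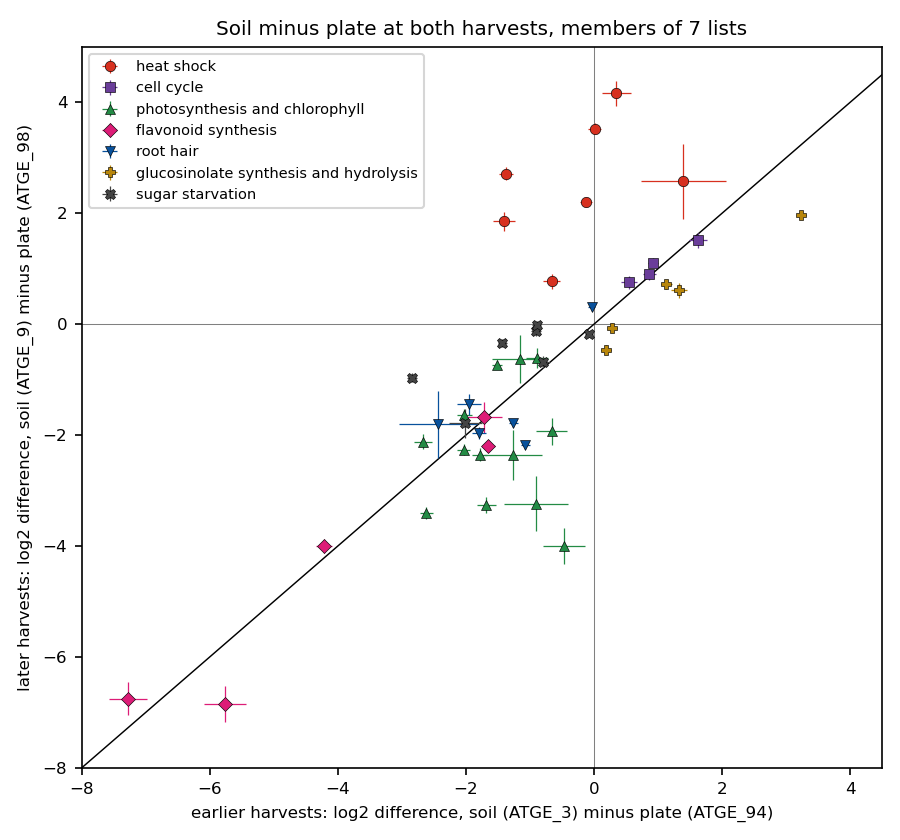
Log2 difference of soil minus plate at the later harvest (ATGE_9 minus ATGE_98, vertical axis) against the earlier harvest (ATGE_3 minus ATGE_94, horizontal axis) for the tested members of 7 lists, with standard errors. Points on the solid line differ equally at both harvests; 6 of the 7 heat shock members lie well above it and the 4 cell cycle members lie near it. Values are as fitted, dim groups included.

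How far the later difference resembled the earlier one was asked over all probe sets. The pairs share no array. Of the 5175 probe sets that rose in later soil roots, 3808 also rose in earlier soil roots, which is 73.6% of the later and 71.0% of the earlier rises. Falls were shared by 3547 probe sets, 70.5% of the later and 76.2% of the earlier falls, and 453 passed in opposite directions. The difference between harvests in the soil effect passed for 4654 probe sets (30.5%), 2044 of them more positive and 2610 more negative at the later harvest. This split depended on the scaling: with each array centred on its median it was 3318 against 1763, with quantile normalization 2371 against 2261, and the centring moved the median of all probe sets by 0.139 on the log2 scale.

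The genes with the most positive differences between harvests were ones that the annotation used here names by locus only. AT1G67865 averaged 591 ± 58.0 in later soil roots and 7.22 ± 0.329 in later plate roots, and 9.32 ± 1.397 in earlier soil roots and 9.10 ± 5.68 in earlier plate roots (SD, n = 3 each). The fitted difference between harvests was 6.05 ± 0.55 (adjusted p = 1.19e-08). AT1G54050 averaged 1157 ± 23.3 and 30.2 ± 1.33 in later soil and plate roots, and 42.1 ± 6.83 and 25.2 ± 8.01 in earlier soil and plate roots. Its difference between harvests was 4.49 ± 0.28 (adjusted p = 1.71e-11). In both genes the later soil group alone was far above the other 3. AT1G67860 (5.63 ± 1.61, adjusted p = 0.0102), AT1G76210 (4.99 ± 1.35, adjusted p = 0.00695), AT5G51440 (4.34 ± 0.23, adjusted p = 8.88e-13) and AT1G14200 (4.12 ± 0.16, adjusted p = 5.09e-15) had positive differences too. Fitted differences that rest on dim groups are no bounds on the true change.

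At the negative end, AT5G44400 averaged 169.7 ± 16.7 and 140.0 ± 7.06 in later soil and plate roots, and 505 ± 28.7 and 14.1 ± 1.18 in earlier soil and plate roots. Its difference between harvests was -4.89 ± 0.13 (adjusted p = 4.7e-18). AT2G33850 averaged 244 ± 23.7 and 221 ± 36.2 in later soil and plate roots, and 547 ± 36.2 and 30.2 ± 3.61 in earlier soil and plate roots, with a difference of -4.04 ± 0.16 (adjusted p = 9.97e-15). Soil roots of the later harvest thus lay near their plate roots for both genes, and those of the earlier harvest lay far above theirs. The other 4 were AT5G14650 (-4.47 ± 0.26, adjusted p = 5.43e-12), AT1G26390 (-4.30 ± 0.36, adjusted p = 3.61e-09), AT3G01830 (-3.97 ± 0.80, adjusted p = 0.000513) and AT2G18480 (-3.90 ± 0.25, adjusted p = 3.18e-11).

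Genes with a symbol differed between harvests as well. The defensin PDF2.1 averaged 101 ± 3.73 and 261 ± 5.12 in later soil and plate roots, and 228 ± 16.4 and 47.5 ± 6.06 in earlier soil and plate roots, and passed with opposite signs at the 2 harvests. Its difference between harvests was -3.64 ± 0.15 (adjusted p = 9.97e-15). The chitinase gene ChiC had a log2 difference of -3.27 ± 0.10 at the later harvest and -0.11 ± 0.10 at the earlier, and these differed by -3.16 ± 0.13 (adjusted p = 2.27e-14). For photosynthesis, 6 of 13 members were more negative and 2 more positive at the later harvest, and the medians were -2.27 later and -1.51 earlier. TUB1 had a difference between harvests of 1.46 ± 0.086 (adjusted p = 5.48e-12) and STZ of -1.19 ± 0.15 (adjusted p = 1.78e-06). No cell cycle member passed this test at an adjusted p of 0.05.

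**Figure D5:**
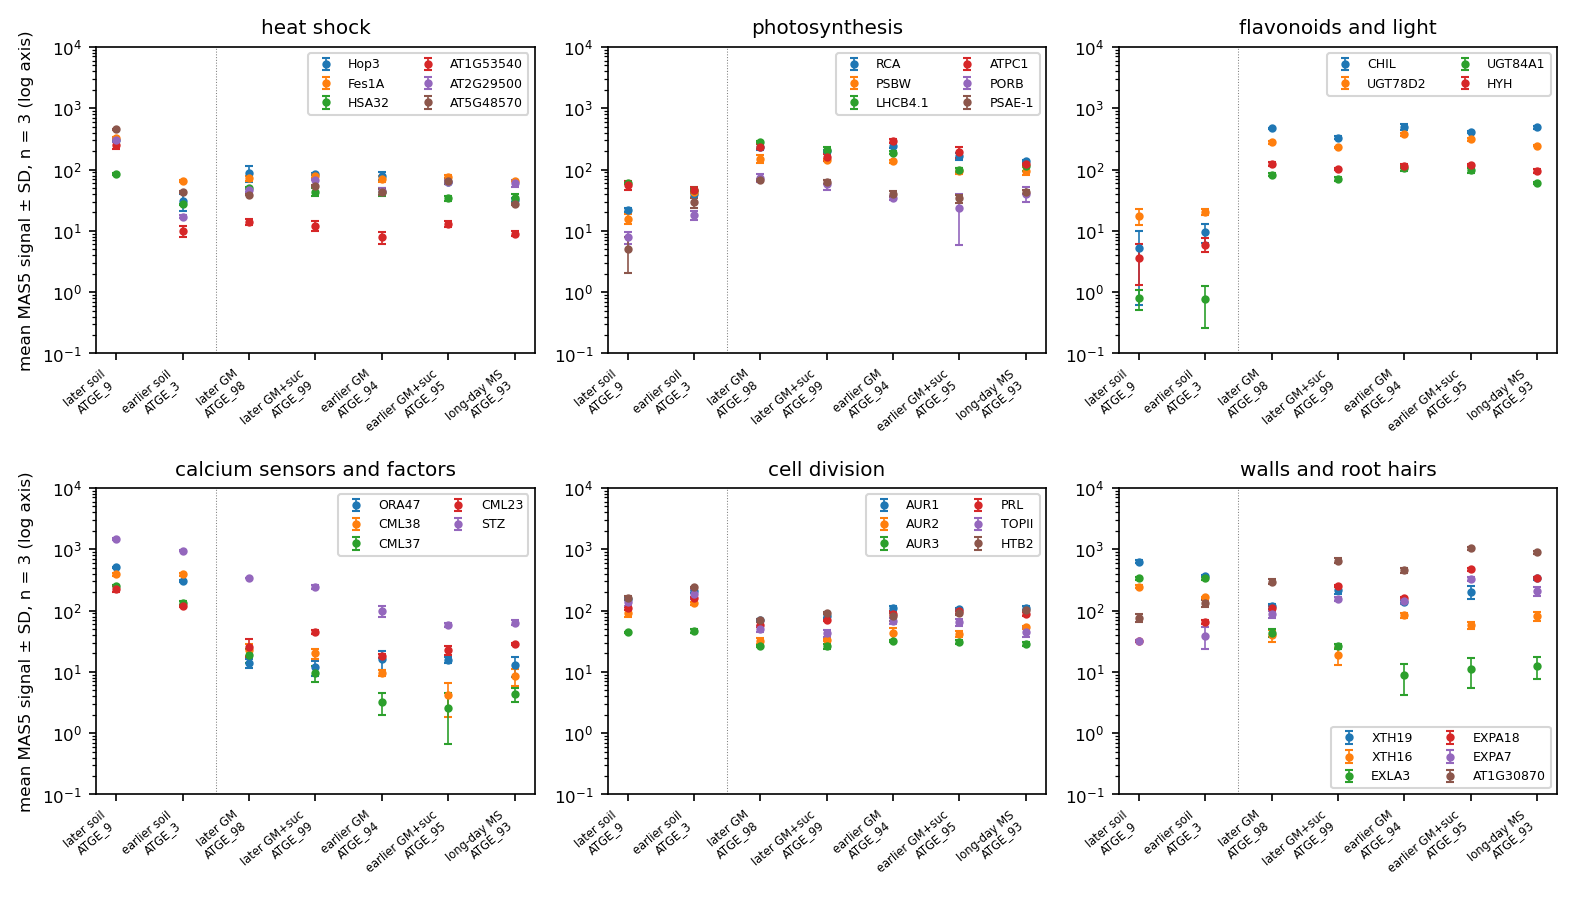
Mean MAS5 signal ± SD (n = 3, log axis) in all 7 root groups for 6 sets of genes, with the later and earlier soil groups left of the dotted line and the 5 plate groups right of it. Heat shock genes are highest in the later soil group, flavonoid and light genes are low in both soil groups, and ORA47, CML37, CML38 and CML23 are high in both soil groups.

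Levels in the other 5 groups set the later pair in context as a description. ORA47 averaged 506 ± 12.1 and 307 ± 13.3 in the later and earlier soil roots, and the highest of the 5 plate groups was 16.2 ± 5.46 in ATGE_94 (SD, n = 3 each). CHIL averaged 5.22 ± 4.62 and 9.70 ± 3.32 in the later and earlier soil roots, and the lowest of the 5 plate groups was 333 ± 21.2 in ATGE_99. AT5G48570 averaged 453 ± 7.92 in the later soil roots and 65.2 ± 7.59 in ATGE_95, the next highest group, while the earlier soil roots had 43.1 ± 2.17. ORA47 was thus high and CHIL low in both soil groups, and AT5G48570 was high in the later soil group alone. EXPA18 was lowest in the later soil roots, at 32.1 ± 1.596, and highest in ATGE_95, at 476 ± 26.5.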

How the data were processed

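The authors deposited linear signal intensities, computed with MAS5 per the submitters' processing notes. The MAS5 version and a genome build are not given in the sources. On each array the mean after trimming 2% of values at either end was 100.01, and this scaling was kept. Control probe sets (64 of 22810) were left out. Of the others, 13513 had 1 gene in the platform annotation, 503 several and 8730 none. Symbols and neighbours came from RefSeq's gene table for TAIR10.1.

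Probe sets entered the test if they lay above the 40th percentile of an array on 3 or more of the 21 arrays. Log2 signals, with no pseudocount, were fitted with limma 3.58.1 in R 4.3.3 (7 group means, 14 residual degrees of freedom, eBayes with an intensity trend). Tests were two-sided, adjusted by Benjamini-Hochberg over all 15284 probe sets. Tables and figures used Python 3.11.15, pandas 2.3.3 and matplotlib 3.10.9. On simulated data, the fit recovered 95 of 100 probe sets changed by 1 on the log2 scale and 100 of 100 changed by 2, with 14 false calls. All other probe sets were left unchanged, and the noise was drawn independently from the fitted spread. These figures therefore do not measure errors in the real arrays, where most probe sets were called.

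The arrays, 31 gene lists and 50 symbol families were chosen with earlier results of these data known. Genes named were the 12 largest fitted rises and 12 largest falls among probe sets with 1 gene that passed without overlap and with the brighter group above the percentile on all arrays, the 6 largest of each sign for the difference between harvests, and the 3 members of each list with the lowest adjusted p, besides other list members. Genes with a symbol described as chosen after their values were seen came from the 70 largest rises and 70 largest falls among such genes. These too had to pass without overlap and with the brighter group above the percentile on all arrays. Their lack of overlap was thus set by the choice. A further 6 symbols that share a family's letters by chance were left out after the data were seen. Most list members had no named probe set, so counts are over tested members. With 3 arrays a group, the number of arrays limits the precision.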

Additional observations from a re-analysis of the deposited data

Results flagged for a closer look

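The difference between soil and plate roots itself differed between the 2 harvests for 4654 of 15284 probe sets (30.5%), tested as an interaction in limma. Of the 183 probe sets named with values in the text, 112 passed that test. Many of these were named for large changes, some of them for this difference itself, so their count is no estimate for other genes. Values of later minus earlier difference (log2) follow for those whose difference was reported above. Among heat shock genes it was 4.09 for AT2G29500, 3.81 for AT1G53540, 3.52 for AT5G48570, 3.26 for Hop3, 2.33 for Fes1A and 1.43 for HSA32. More positive later differences were also 4.12 for AT1G14200, 4.49 for AT1G54050, 5.63 for AT1G67860, 6.05 for AT1G67865, 4.99 for AT1G76210, 4.34 for AT5G51440, 1.88 for MGL and 1.46 for TUB1. More negative later differences were -4.30 for AT1G26390, -3.90 for AT2G18480, -4.04 for AT2G33850, -3.97 for AT3G01830, -4.47 for AT5G14650, -4.89 for AT5G44400, -3.16 for ChiC, -3.64 for PDF2.1 and -1.19 for STZ.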

How the results depend on the processing

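The later comparison called 10206 probe sets, between 10176 and 10369 under quantile normalization, median centring, a pseudocount of 6.99, a fit of the compared groups alone, a fit without the intensity trend and the replicate block, 8066 with the filter at the 60th percentile and 10701 with none. Leaving out 1 array gave 9508 to 9680. The difference between harvests (4654) ranged from 4507 to 5081 under the same settings, was 4035 and 4442 with the filters, and ranged from 4149 to 4677 with 1 array left out. Counts over lists and families (216) stayed between 183 and 220. The replicate letters do not pair the samples: deviations of same-letter arrays correlated at 0.0476, 0.0162 and -0.0380 over probe sets between the later groups and at -0.07366, 0.00218 and 0.04115 between the earlier groups. With the letter as a replicate block, 10212 probe sets passed in the later comparison and 4648 in the difference between harvests. Of the 183 probe sets named with values, 175 kept their direction and side of the threshold under all settings in which they were tested, and none reversed. GSO1, UGT72E3, XTH26 and AT5G44400 lost their call under at least 1 setting, and HCT, IRX15, LHCB4.2 and PYE gained one; the cause was not tested. For XTH26 the pseudocount gave a log2 difference of -0.38 (adjusted p = 0.116). Signals near the 40th percentile limit folds to lower bounds, and most of the largest changes rest on such bounds.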
